A study of Homo sapiens with 8 samples.

Results

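HBEGF, which encodes heparin-binding EGF-like growth factor, and the other EGF-family ligands and ERBB receptors were examined in LNCaP, an androgen-responsive human prostate cancer line derived from a metastasis. The members were 6 ligands (HBEGF, AREG, EREG, TGFA, EGF and BTC) and 4 receptors (EGFR, ERBB2, ERBB3 and ERBB4), found as the array probes whose RefSeq accession mapped to these symbols. They were 10 of 28850 genes tested, measured by 17 probes, of which 15 passed the filter on low signal. All 10 members passed it with at least 1 probe, and the probes left out were 1 of AREG and 1 of ERBB4.

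The cultures received 30 nM of either an siRNA against the transcription factor GATA2 (siGATA2) or a scrambled siRNA (siControl), and RNA was taken at 72 h. Cy3-labelled RNA of 4 samples per group, described as biological replicates, was hybridised to one-colour Agilent arrays. A single line and a single siRNA product against GATA2 were used, so effects of the siRNA on other transcripts cannot be told apart from those of GATA2. How separate the cultures were is not given in the sources used here, so p-values measure the spread between these samples.

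Ligands of this family are made as membrane-bound precursors. Proteases at the cell surface cut them free, and the released peptide binds an ERBB receptor on the same or a neighbouring cell. EGFR binds all the ligands in the list, and ERBB2 has no known ligand of its own and acts as a partner. ERBB3 has little kinase activity and, like ERBB4, binds neuregulins. The paired receptors feed the RAS-ERK and PI3K-AKT pathways, which support growth and survival of prostate epithelial cells.

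On the arrays labelled siGATA2, the transcript of HBEGF was 6.23-fold higher than in siControl and that of ERBB2 was 3.76-fold higher. EGF itself was 1.99-fold lower, a call kept under 21 of 22 other ways of processing the arrays. ERBB3 was 1.49-fold higher at its brightest probe, but that call was kept under only 10 of the 22. A second ERBB3 probe, 1.86-fold higher, lost its call only with spike-in scaling. BTC, encoding betacellulin, was called higher from a signal near background, so no fold is given. The remaining 5 members, AREG, EREG, TGFA, EGFR and ERBB4, did not pass an adjusted p of 0.05 from limma, the threshold used here for calling a gene. Thus 4 of 10 members were called higher, against 12.3% of all genes tested, and 1 of 10 was called lower, against 14.2%. Groups that did not overlap were seen in 6 of 10 members and in 32.6% of all genes. The median log2 difference of the members, siGATA2 minus siControl, was 0.36, and that of all genes was 0.09.

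The arrays differed in ways that touch these values. On the arrays labelled siGATA2, 34387 to 36976 probes were well above background, against 24331 to 34825 in siControl, with the lowest numbers on siControl arrays 3 and 1. These 2 arrays also had the widest spread of negative control signal, with SDs of 7.26 and 4.49 against 1.78 to 2.40 elsewhere. All arrays lay on 1 slide, and its rows held 3 siGATA2 arrays with 1 siControl array and 1 siGATA2 array with 3 siControl arrays. The E1A spike-in probes, which read control RNA added to every sample, had a mean log2 signal of 11.13 for siControl array 1 and of 13.45 to 13.83 elsewhere. Markers of cell types were counted beside the 12.3% of all genes called higher and 14.2% called lower. All 9 markers of luminal prostate cells, among them KLK3, were well above background on all 8 arrays, with a summed linear signal of 337400 to 514100 on siGATA2 arrays and 480200 to 586500 on siControl arrays, and 1 marker was called higher and 5 lower. None of the 5 basal or other-line markers tested was called, with sums of 1286 to 3095 and 2833 to 3560 in the same order. Of 5 stromal markers tested, 0 were called higher and 1 lower, with sums of 429.9 to 869 and 620.3 to 1062, and of 7 blood and vessel markers 1 was called in each direction, with sums of 1695 to 1832 and 1834 to 1980. The part of these shifts in the members' values was not tested. All samples were labelled as the single line LNCaP, so these sums describe marker signal and not shares of cell types. Fewer cells expressing a marker cannot be told apart from less of its RNA per cell.

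GATA2, the gene that the siRNA was aimed at, had 1 probe, which stood well above background throughout. Arrays 1 to 4 labelled siGATA2 gave log2 signals of 12.61, 12.54, 11.57 and 11.40, and arrays 1 to 4 labelled siControl gave 11.74, 11.28, 11.10 and 11.29. The groups overlapped and the difference was 0.68 (standard error 0.312, adjusted p = 0.154 from limma). The exact two-sided permutation p was 0.143. A fall of the targeted transcript was not detected, so each direction given here rests on the labels of the arrays.

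The sequences upstream of HBEGF, EGF and ERBB2 are shown because these were the ligand with the largest rise, the ligand that was called lower and the receptor with the largest rise. They are the 250 bases before the annotated start in RefSeq, build GRCh38.p14, written 5′ to 3′ on the strand of the gene. The table of promoters held 9 of the 10 members, with 11 windows in all, and no window for ERBB3. HBEGF lies on the minus strand at chr5:140346604-140346853, EGF on the plus strand at chr4:109912633-109912882 and ERBB2 on the plus strand at chr17:39687844-39688093. Capitals mark a GATA motif (AGATAA, its variant ending in G, and both with T as the first letter), an AP-1 motif (TGANTCA) or a GC box (GGGCGG), on either strand.
HBEGF: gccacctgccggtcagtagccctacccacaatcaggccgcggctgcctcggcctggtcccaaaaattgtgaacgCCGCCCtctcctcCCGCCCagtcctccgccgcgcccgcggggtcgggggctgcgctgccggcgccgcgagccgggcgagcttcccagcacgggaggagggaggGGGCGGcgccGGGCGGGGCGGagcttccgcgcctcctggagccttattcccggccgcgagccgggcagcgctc
EGF: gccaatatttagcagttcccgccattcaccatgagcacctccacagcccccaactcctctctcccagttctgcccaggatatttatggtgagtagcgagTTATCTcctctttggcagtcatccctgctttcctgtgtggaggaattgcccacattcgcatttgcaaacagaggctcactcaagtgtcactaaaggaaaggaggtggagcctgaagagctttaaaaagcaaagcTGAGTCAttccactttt
ERBB2: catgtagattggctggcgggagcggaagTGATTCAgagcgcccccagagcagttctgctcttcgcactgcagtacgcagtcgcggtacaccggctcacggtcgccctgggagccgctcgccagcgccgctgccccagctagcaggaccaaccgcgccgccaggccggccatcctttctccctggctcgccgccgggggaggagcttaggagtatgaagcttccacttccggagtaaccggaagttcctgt

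The HBEGF window was 76.4% G and C, and its capitals mark 5 GC boxes, some of which overlap. No GATA or AP-1 letters were found in it. In the EGF window, 48.8% G and C, the capitals mark 1 GATA motif on the opposite strand, at position -151, followed by 1 AP-1 motif close to the start. The ERBB2 window held 1 AP-1 motif. Among the 11 member windows, 2 held a GATA motif, those of EGF and of the second start of EGFR, and 3 held an AP-1 motif, in EGF, ERBB2 and that same EGFR start. Across 35116 promoter windows of this length, 22.3% held the GATA motif, 6.57% the AP-1 motif and 42.6% the GC box. A further motif searched, the E-box CACGTG, was in none of the member windows and in 6.34% of all. A match is a description of letters and not of binding.

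HBEGF encodes a ligand of EGFR and ERBB4 that is also the cell-surface receptor for diphtheria toxin. Its log2 signal was 9.79, 10.06, 10.37 and 10.42 on the arrays labelled siGATA2, in the order 1 to 4, against 6.79, 7.89, 7.52 and 7.89 on those labelled siControl. Every siGATA2 value lay above every siControl value, and the lowest value was that of siControl array 1. The means were 10.16 ± 0.292 (SD, n = 4) and 7.52 ± 0.520 (SD, n = 4), a log2 difference of 2.64 (standard error 0.273, adjusted p = 0.000290 from limma). The exact two-sided permutation p was 0.0286, the smallest that 4 arrays against 4 allow. Within the slide rows the log2 difference of HBEGF was 2.19 and 3.02. HBEGF also belongs to a gene module that the study chose partly on these arrays, and that membership is no independent evidence of its rise.

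EGF, the founding ligand of the family, moved in the other direction. Its log2 signal was 6.96, 7.09, 6.97 and 6.77 in siGATA2 and 7.78, 8.12, 7.86 and 8.01 in siControl, so that the groups lay apart. The means were 6.95 ± 0.134 (SD, n = 4) and 7.94 ± 0.151 (SD, n = 4). The log2 difference was -1.0 (standard error 0.121, adjusted p = 0.000647 from limma). Within the slide rows it was -1.01 and -1.15. With normexp background correction, described next for BTC, the EGF difference shrank to -0.71 (adjusted p = 0.000166 from limma) and stayed called.

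BTC, which binds EGFR and ERBB4, had a dim signal. Its log2 values were 4.08, 4.80, 4.84 and 4.65 in siGATA2 and 2.90, 3.59, 3.93 and 3.67 in siControl. The groups did not overlap, but the BTC probe was well above background on 4 of 4 siGATA2 arrays and on only 1 of 4 siControl arrays. The log2 difference was 1.07 (standard error 0.259, adjusted p = 0.0180 from limma). Normexp background correction adds an offset that shrinks differences of dim probes, and it was run on the median signal in place of the processed signal. With it the BTC difference was 0.21 (adjusted p = 0.101 from limma) and the call was lost.

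**Figure D1:**
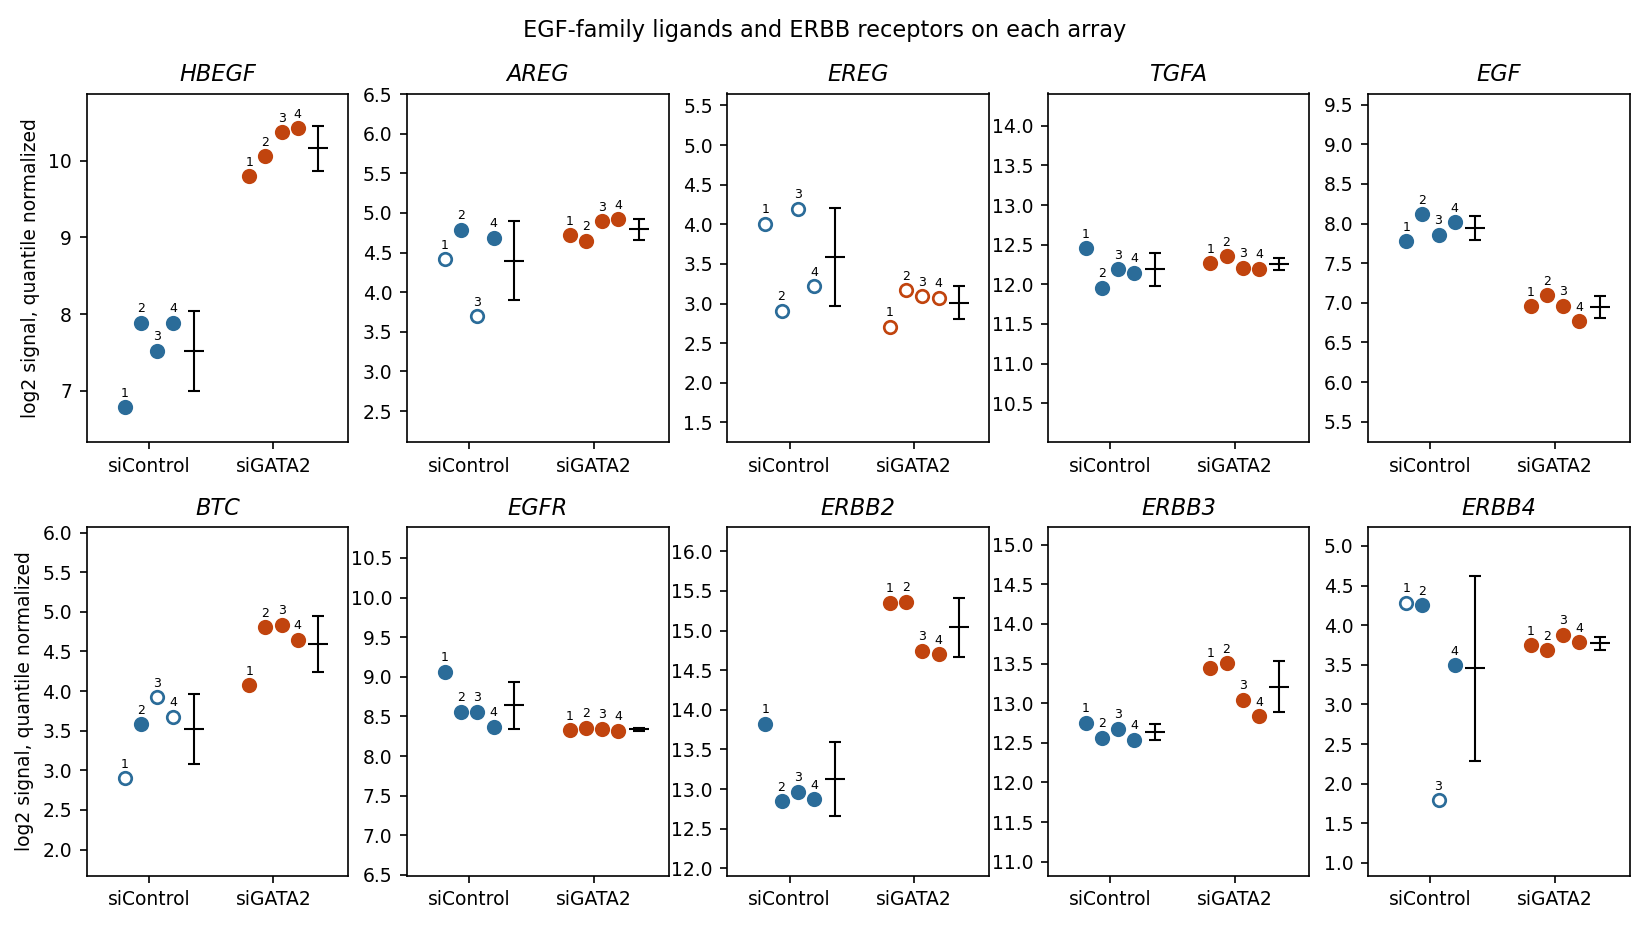
Quantile-normalised log2 signal of the brightest probe of each of the 10 members, with 1 numbered point per array, open where the probe was not well above background, and the mean and SD of each group beside its 4 points. Each panel has its own vertical range. The groups lie apart in HBEGF, EGF, BTC, EGFR, ERBB2 and ERBB3, with 2.64 between the means of HBEGF and 1.91 between those of ERBB2, and overlap in AREG, EREG, TGFA and ERBB4.

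The other ligands were not called. TGFA, encoding transforming growth factor alpha, had log2 values of 12.20 to 12.36 in siGATA2 and 11.96 to 12.46 in siControl, with a difference of 0.07 (standard error 0.126, adjusted p = 0.724 from limma). A second TGFA probe gave -1.09 (standard error 0.492, adjusted p = 0.145 from limma over all probes) with groups that did not overlap, but it was well above background on 0 of 4 siGATA2 arrays and 1 of 4 siControl arrays. On siControl array 3 this probe read 5.62, against 3.13 to 3.79 on the rest of siControl, and without that array its difference was -0.56 and not called. The probe was called lower with siControl arrays 2 and 4 only (-0.74, adjusted p = 0.0222 from limma) and with array weights (-0.91, adjusted p = 0.0445 from limma). It was also called with spike-in scaling and siControl array 1 left out (-1.41, adjusted p = 0.0403 from limma). AREG, the amphiregulin gene, had 4.65 to 4.92 in siGATA2 and 3.69 to 4.79 in siControl. Its probe was well above background on 4 siGATA2 arrays and on siControl arrays 2 and 4, but not on siControl arrays 1 and 3. Its log2 difference was 0.40 (standard error 0.239, adjusted p = 0.265 from limma). With 75th percentile scaling AREG passed the threshold at 0.57 (adjusted p = 0.0219 from limma). With siControl arrays 2 and 4 only, the AREG difference was 0.06 (adjusted p = 0.79 from limma). The epiregulin gene EREG was not well above background on any of the 8 arrays, so no fold is given, and its values were 2.71 to 3.17 and 2.91 to 4.20. EREG, AREG and BTC lie next to each other on chromosome 4, after EPGN and with 2 noncoding RNA loci before BTC. Of these neighbours, BTC was called higher, AREG and EREG were not called, and EPGN did not pass the filter. EGF lies elsewhere on chromosome 4.

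ERBB2, also known as HER2, showed the largest receptor difference. Its log2 signal was 15.35, 15.36, 14.74 and 14.70 in siGATA2 and 13.82, 12.85, 12.96 and 12.87 in siControl. The groups did not overlap, and siControl array 1 was the highest of its group. The means were 15.04 ± 0.368 (SD, n = 4) and 13.13 ± 0.466 (SD, n = 4), a log2 difference of 1.91 (standard error 0.272, adjusted p = 0.00146 from limma). The probe was spotted 10 times on each array and all 10 spots were used. No spot was saturated. Within the slide rows the log2 difference of ERBB2 was 2.28 and 1.49.

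ERBB3, a receptor with little kinase activity that relays signal through its partners, was measured by 3 probes, and they differed in size. The brightest had log2 values of 13.45, 13.51, 13.04 and 12.83 in siGATA2 and 12.75, 12.56, 12.68 and 12.54 in siControl. The groups lay apart by a narrow margin, and the difference was 0.57 (standard error 0.170, adjusted p = 0.0400 from limma). Within the slide rows it was 0.79 and 0.17, and with slide row as a block 0.48 (adjusted p = 0.163 from limma). With spike-in scaling it was -0.10 (adjusted p = 0.946 from limma). A second probe, for transcript NM_001005915, had 12.29, 12.16, 11.96 and 11.98 against 11.31, 11.15, 11.18 and 11.17. Its siGATA2 values were all above its siControl values, and its difference of 0.90 (standard error 0.113, adjusted p = 0.00079 from limma over all probes) was 1.86-fold. The call of this second probe was lost with spike-in scaling (0.26, adjusted p = 0.838 from limma). It was kept under each other setting run on single probes, among them slide row as a block (0.87, adjusted p = 0.00688 from limma). The last ERBB3 probe gave 0.45 (standard error 0.181, adjusted p = 0.105 from limma over all probes) and was not called.

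EGFR, the receptor shared by these ligands, had probes that disagreed in sign. The brightest had log2 values of 8.32, 8.36, 8.34 and 8.32 in siGATA2 and 9.06, 8.56, 8.56 and 8.37 in siControl. Every siGATA2 value was below every siControl value, though only just below that of siControl array 4, and the siGATA2 values had an SD of 0.0173 against 0.297 in siControl. The log2 difference was -0.30 (standard error 0.154, adjusted p = 0.193 from limma), short of the threshold. The probe for transcript NM_201283, annotated as a shorter form, had 6.5, 6.6, 6.83 and 6.94 in siGATA2 and 6.23, 6.35, 5.93 and 6.13 in siControl. It was called higher at 0.55 (standard error 0.145, adjusted p = 0.0243 from limma over all probes), or 1.47-fold. This call was lost with spike-in scaling, also with siControl 1 left out (adjusted p = 0.0552), with normexp at 0.28 (adjusted p = 0.0584), with the replicate number as a block (adjusted p = 0.0728) and with siControl arrays 2 and 4 only (adjusted p = 0.0990). It was lost too without siGATA2 array 3 or 4 or siControl array 3 or 4 (adjusted p = 0.0609 to 0.0664 from limma). The last EGFR probe, for NM_201282, differed by -0.03 (adjusted p = 0.906 from limma over all probes).

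ERBB4, a receptor for neuregulins, betacellulin and HB-EGF, was dim, with log2 values of 3.75, 3.68, 3.88 and 3.78 in siGATA2 and 4.29, 4.25, 1.79 and 3.5 in siControl. Its probe was well above background on 4 siGATA2 arrays and on siControl arrays 2 and 4, but not on siControl arrays 1 and 3. The lowest value was that of siControl array 3. The difference of 0.32 (standard error 0.518, adjusted p = 0.684 from limma) was smaller than its standard error.

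**Figure D2:**
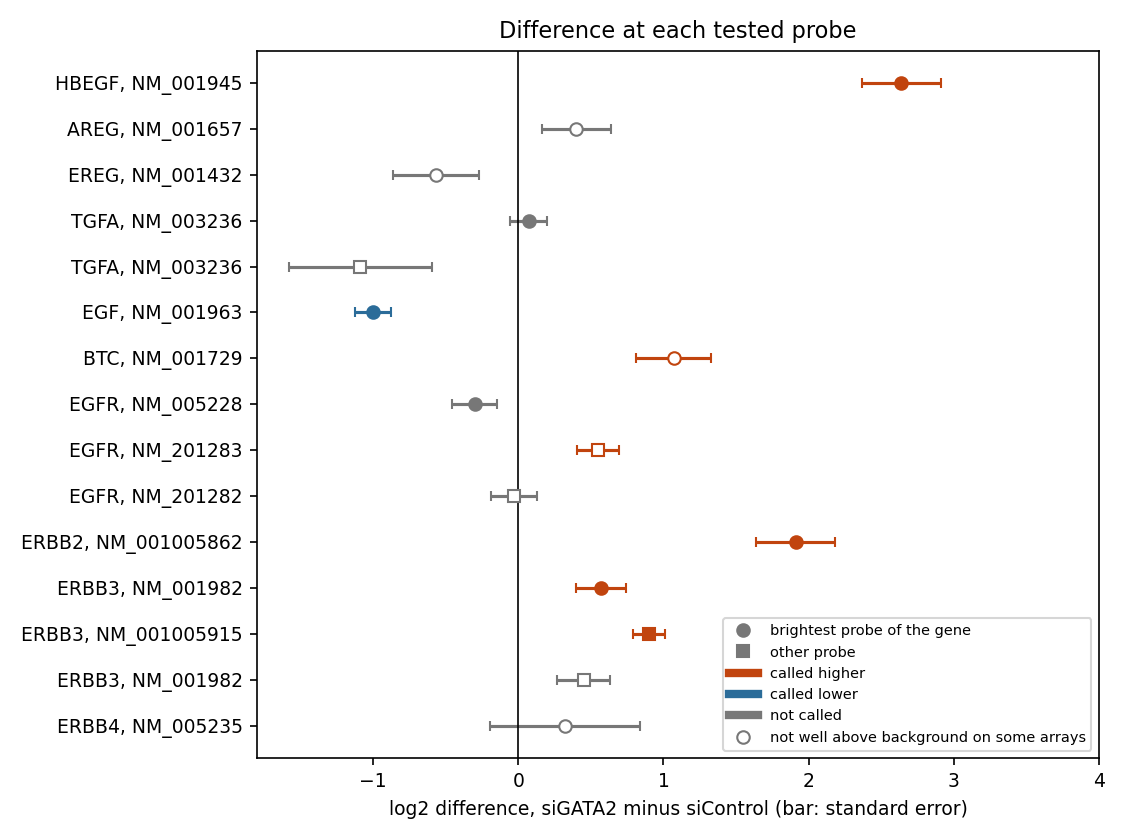
Log2 difference, siGATA2 minus siControl, with its standard error for each of the 15 probes tested, grouped by gene, with squares for probes other than the brightest and open symbols for probes not well above background on some arrays. The ERBB3 probes lie between 0.45 and 0.90, and those of EGFR between -0.30 and 0.55.

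Counted by probe, 6 of 15 were called higher, against 12.5% of all probes tested, and 1 was called lower, against 14.5%. The higher probes were those of HBEGF, BTC and ERBB2, 2 of ERBB3 and 1 of EGFR. The arrays labelled siGATA2 also fell into pairs in some members and in some other genes. In ERBB2 and ERBB3, as in GATA2, arrays 1 and 2 lay above arrays 3 and 4, whereas in HBEGF arrays 3 and 4 lay above arrays 1 and 2. Outside the members, siGATA2 arrays 1 to 4 read 16.48, 16.2, 14.59 and 14.7 for KLK3 and 9.98, 10.04, 11.44 and 11.38 for VIM. RHBDF2 split in the same way, whereas CD9 did not, at 14.21, 14.26, 14.25 and 14.26. Each p-value given here counts the 4 arrays of a group as separate samples, and whether arrays alike in pairs were separate is not known. A cause of this was not tested.

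The scaling of the arrays set how many of these calls held. When scaled to the E1A spike-in probes, HBEGF was the only member called, at 2.13 (adjusted p = 0.00616 from limma), and EGF (-1.43), ERBB2 (1.21) and BTC (0.60) kept their direction but not their call. The median of all genes moved from 0.09 to -0.43 under this scaling, and 93.1% of all called genes were lower, against 53.5% before. Relative to the median of all genes, HBEGF was 2.55 under quantile normalisation and 2.56 under spike-in scaling. On the same relative scale ERBB2 was 1.82 and 1.64, EGF -1.09 and -1.0, BTC 0.98 and 1.03, and ERBB3 0.48 and 0.33. Spike-in scaling shifts all probes of an array by the same amount, and taking off the median of all genes removes that shift. The likeness of these relative values was thus largely set in advance and does not show that a call holds under the scaling. With siControl array 1, whose spike-in signal was low, left out as well, HBEGF, EGF, BTC and ERBB2 were all called again, at 2.37, -1.01, 0.94 and 1.81, a setting added once results were known.

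**Figure D3:**
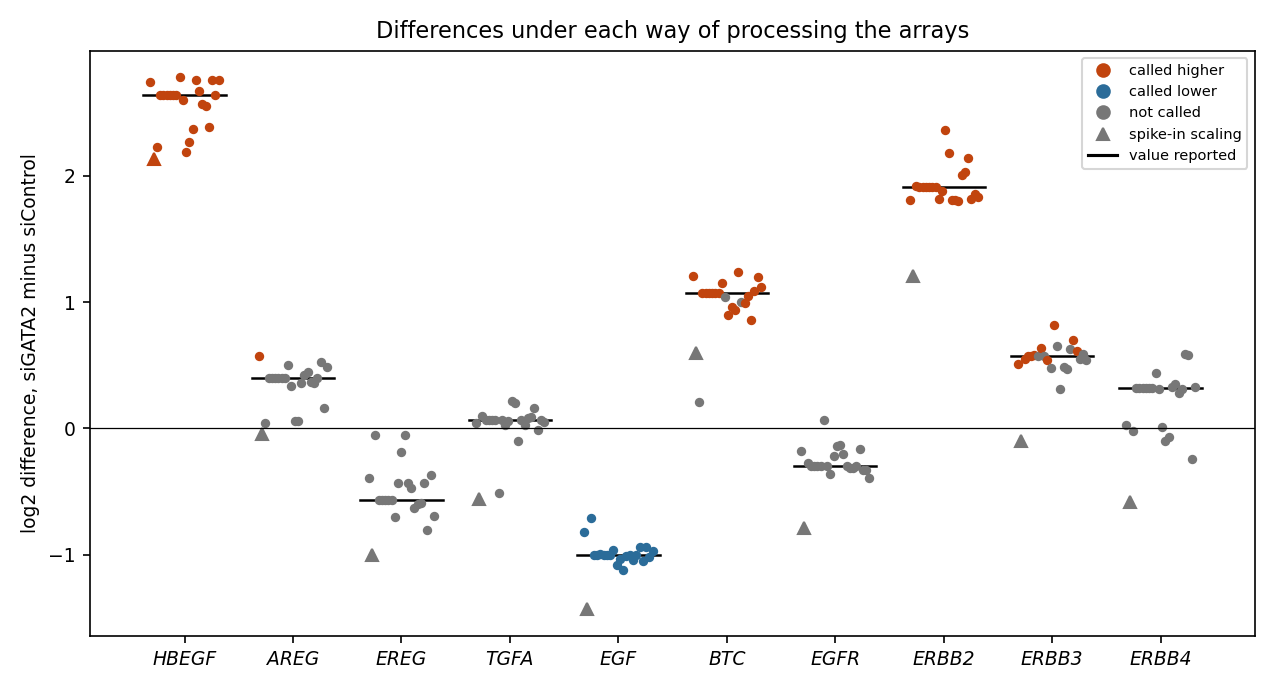
Log2 difference, siGATA2 minus siControl, of the members under each way of processing the arrays, with 1 point per setting, coloured where the adjusted p was under 0.05, a triangle for spike-in scaling and a line at the value reported. HBEGF stays between 2.13 and 2.78, while ERBB3 runs from -0.10 to 0.82 and BTC from 0.21 to 1.24.

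The other ligands of the ERBB receptors were looked at next. Of 5 genes listed, EPGN did not pass the filter, and none of the 4 neuregulin genes was called. The log2 difference was -0.06 for NRG1 (adjusted p = 0.889), 0.08 for NRG2 (adjusted p = 0.895), -0.25 for NRG3 (adjusted p = 0.479) and -0.12 for NRG4 (adjusted p = 0.587), all from limma. NRG2 reached a signal well above background on none of the siControl arrays, so its value has no firm size.

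Genes that free the ligands from the cell surface changed in both directions. Of 14 genes for sheddases, their partners and inhibitors and proteins bound to the HB-EGF precursor, 6 were called higher, 3 lower and 5 neither, where 12.3% of all genes were higher and 14.2% lower. Their median log2 difference was 0.46, against 0.09 for all genes. All 14 were well above background on all 8 arrays. RHBDF1, encoding the inactive rhomboid iRhom1 that escorts the sheddase ADAM17 to the surface, had log2 values of 14.35, 14.48, 13.53 and 13.52 in siGATA2 and 11.97, 11.43, 11.37 and 11.45 in siControl. All siGATA2 values of RHBDF1 lay above siControl, by 2.42 on the log2 scale (standard error 0.270, adjusted p = 0.000425 from limma). Its relative RHBDF2, encoding iRhom2, went the other way, with 11.82, 11.79, 10.83 and 10.82 against 13.04, 12.59, 12.79 and 12.57. The RHBDF2 difference was -1.43 (standard error 0.278, adjusted p = 0.00662 from limma). With siControl arrays 2 and 4 only it was -1.27 (adjusted p = 0.0549 from limma) and the call was lost.

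ADAM10, a sheddase of EGF and betacellulin, had log2 values of 12.01, 12.11, 12.08 and 12.19 in siGATA2 and 10.99, 10.55, 10.41 and 10.52 in siControl. ADAM9, another metalloprotease that can cut the HB-EGF precursor, had 8.73, 8.96, 9.55 and 9.67 against 7.45, 8.01, 7.72 and 7.81. Both were called higher and both by 1.48, with standard errors of 0.143 for ADAM10 and 0.237 for ADAM9 and adjusted p values of 0.000206 and 0.00257 from limma. ADAM17, named after its values were seen because it is the main sheddase of HB-EGF, differed by 0.00 (standard error 0.128, adjusted p = 0.992 from limma). TIMP3, an inhibitor of ADAM17 and ADAM10, had 5.29, 5.29, 5.56 and 5.67 in siGATA2 and 7.09, 7.99, 7.12 and 8.16 in siControl. Its difference was -2.14 (standard error 0.273, adjusted p = 0.000831 from limma). With normexp the TIMP3 difference was -1.23. FURIN, a proprotein convertase that activates ADAM precursors, was lower by 2.29-fold (log2 difference -1.19, adjusted p = 0.00139 from limma).

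Adaptors, RAS and RAF proteins, kinases and PI3-kinase subunits carry the receptor signal inward. Of 26 such genes, 4 were called higher, 3 lower and 19 neither, with a median of 0.13, and these counts are near the background of 12.3% of all genes higher and 14.2% lower. The largest rises were those of SOS2, a RAS exchange factor, at 0.89 (standard error 0.108, adjusted p = 0.000632), PIK3CB at 0.70 (adjusted p = 0.00287) and PIK3CA at 0.63 (adjusted p = 0.0158), from limma. The latter are catalytic subunits of PI3-kinase. Its regulatory subunits PIK3R2, at -0.95 (standard error 0.154, adjusted p = 0.00280), and PIK3R1, at -0.64 (adjusted p = 0.00523), were lower, as was the adaptor NCK1 at -0.50 (adjusted p = 0.0353), from limma. No gene of this list changed by 2-fold. The calls of PIK3CA and NCK1 were lost with siControl arrays 2 and 4 only (adjusted p = 0.0866 and 0.0809 from limma), and that of NCK1 also with slide row or replicate number as a block (adjusted p = 0.146 and 0.0684).

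Among 15 genes that dampen the receptors, 4 were called higher, 1 lower and 10 neither, with a median of 0.27, where 12.3% of all genes were higher and 14.2% lower. PTPRJ, a receptor-type tyrosine phosphatase, had log2 values of 10.55, 10.58, 10.63 and 10.69 in siGATA2 and 9.57, 9.61, 9.27 and 9.42 in siControl. It was higher by 1.15 (standard error 0.111, adjusted p = 0.000207 from limma). EPS15, an endocytic adaptor, was higher by 1.04 (adjusted p = 0.00280 from limma), and CBLB, a ubiquitin ligase, by 0.99 (adjusted p = 0.00587 from limma). LRIG3, a membrane protein related to the receptor inhibitor LRIG1, was the gene called lower, at -0.95 (standard error 0.155, adjusted p = 0.00285 from limma).

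A further list held transcripts known to rise when ERK is active. Of 15 listed genes 14 were tested, and 3 were called higher, 2 lower and 9 neither, with a median of 0.27. The background was 12.3% of all genes higher and 14.2% lower, so the count of lower genes is near it. DUSP5, a nuclear phosphatase that acts on ERK, had log2 values of 7.48, 7.89, 7.95 and 7.81 in siGATA2 and 4.20, 6.15, 5.37 and 5.79 in siControl. The groups of DUSP5 lay apart by a difference of 2.40 (standard error 0.390, adjusted p = 0.00279 from limma), and its probe was well above background on 4 siGATA2 arrays and 2 siControl arrays. With normexp the DUSP5 difference was 1.31. DUSP6, the cytoplasmic phosphatase of ERK, was higher by 1.68 (standard error 0.261, adjusted p = 0.00226 from limma), or 1.11 with normexp, and 3 of 4 siControl arrays had it well above background. SPRED2, an inhibitor of RAS signalling, was higher by 1.31 (standard error 0.310, adjusted p = 0.0161 from limma), a call lost with slide row as a block (adjusted p = 0.0613) and with siControl arrays 2 and 4 only (adjusted p = 0.0818).

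PHLDA1, a pleckstrin-homology protein, had log2 values of 8.49, 8.14, 7.56 and 7.81 in siGATA2 and 10.35, 9.39, 9.47 and 9.51 in siControl. It was lower by 3.21-fold, with a log2 difference of -1.68 (standard error 0.275, adjusted p = 0.00288 from limma). SPRY1, a Sprouty inhibitor of receptor tyrosine kinase signalling, was lower by 2.46-fold (log2 difference -1.30, adjusted p = 0.00892 from limma). FOS, named after its values were seen, had the widest spread of the list, with 11.31, 7.23, 5.10 and 5.07 against 5.81, 5.2, 1.78 and 4.76. The FOS groups overlapped, and its difference of 2.79 (standard error 1.51, adjusted p = 0.220 from limma) was not called.

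Together, 17 of the 73 genes tested in these lists were called higher, against 12.3% of all genes, and 9 lower, against 14.2%, with a median of 0.19. With spike-in scaling 1 of them was called higher, DUSP5 at 2.14 (adjusted p = 0.00633), and 5 were called lower, TIMP3 at -2.52 (adjusted p = 0.00264), RHBDF2 at -2.10 (adjusted p = 0.0170), PIK3R2 at -1.72 (adjusted p = 0.0377), PHLDA1 at -2.20 (adjusted p = 0.0227) and SPRY1 at -1.74 (adjusted p = 0.0240), all from limma. The shares above do not apply to that scaling, under which 141 of all genes were called higher and 1899 lower. Lower calls were thus far more frequent than higher ones among all genes too.

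**Figure D4:**
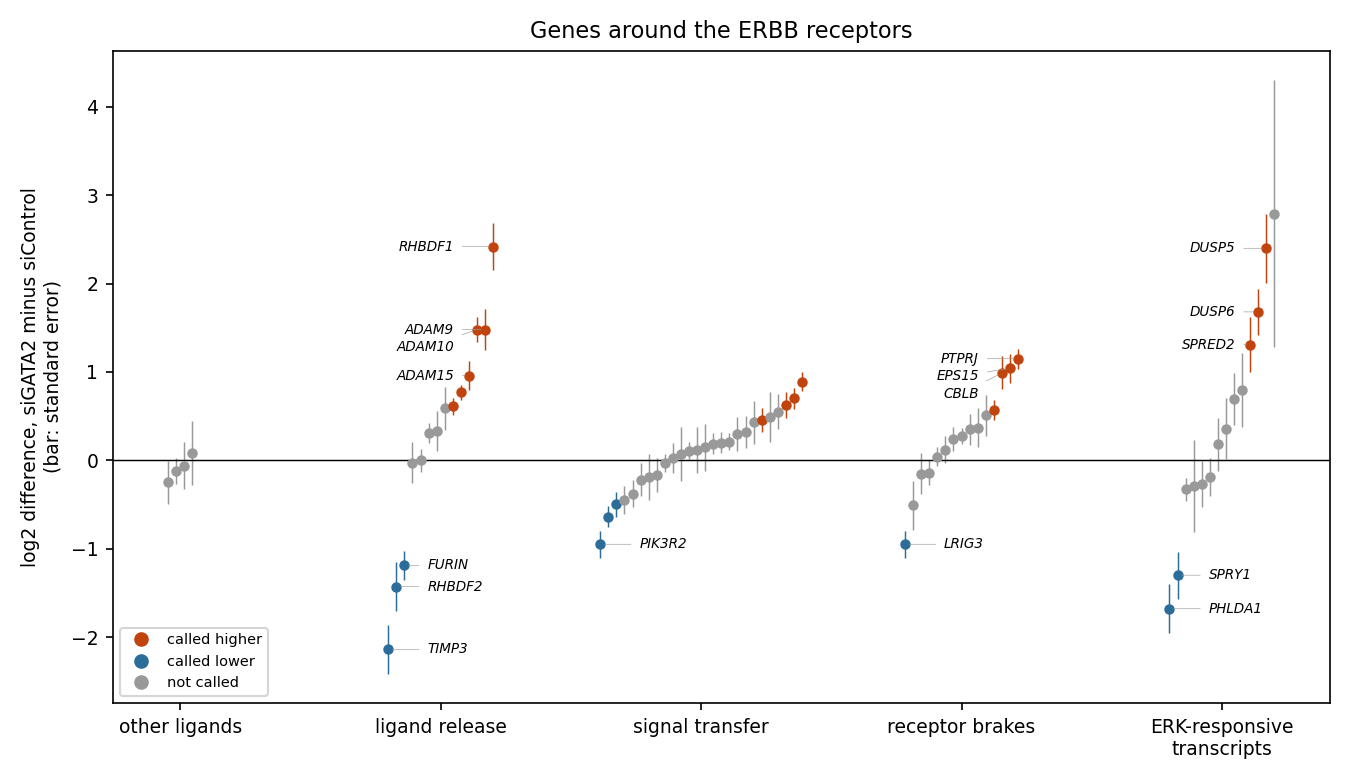
Log2 difference, siGATA2 minus siControl, with its standard error for the genes tested in the 5 lists around the receptors, ordered by value within a list, with called genes coloured and those with a difference of about 1 or more named. Among the called genes, RHBDF1 lies at 2.42 and TIMP3 at -2.14, while DUSP5, at 2.40 here and 1.31 with normexp, had only 2 siControl arrays well above background.

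The genes whose signal followed that of HBEGF most closely over the 8 arrays were YIPF6 (Pearson r = 0.999), CSAG1 (0.997), ANKRD29 (0.997) and PIAS1 (0.997), out of 13252 genes with a symbol whose probe was well above background on all 8 arrays. Deviations from the group means gave r = 0.99 for YIPF6 and r = 0.96 for PIAS1. Their log2 differences were smaller than that of HBEGF, from 0.57 for YIPF6 to 1.43 for ANKRD29. As many as 659 genes had r above 0.95, and the points share 8 arrays in 2 groups that differ, so these values are a description.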

How the data were processed

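RNA of 4 LNCaP samples labelled siGATA2 and 4 labelled siControl was measured on one-colour Agilent arrays, and groups and replicate numbers follow the labels. The authors deposited spot intensities (of which median and processed signals, local background and flags were used here), written by Agilent Feature Extraction 11.0.1.1, together with a value table in log2 units. These deposited log2 values correlated at 0.985 or more with the log2 processed signal of their own array, and each column had a median of 7.45. They were used as an alternative. Per the paper's methods the processed signal was quantile-normalised, and probes without annotation or under 3 on the log2 scale were removed. The array design named in the file headers, which give build hg19, differs from that in the methods.

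Here log2 processed signals of spots without an outlier flag were averaged per probe and quantile-normalised together in R 4.3.3 with limma 3.58.1. A probe counted as well above background on an array where at least a share of 0.5 of its spots had that flag. A RefSeq accession was given for 27902 probes, and 26364 of these were matched to a symbol through a GRCh38.p14 table, which served for names and promoters. Of 42405 probes, 1914 had no annotation, and 35514 had a mean of at least 3. The brightest probe stood for each of 28850 genes. Groups were compared with lmFit and eBayes of limma, in place of the methods' t-test, with Benjamini-Hochberg adjustment over all genes, or over all probes where a probe is given, and called at an adjusted p under 0.05. A single value was also tested by exact permutation over the 8 arrays.

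The members and the gene lists were chosen with earlier results of these data known. Genes named are all members, GATA2, the 3 called genes of each list with the largest fall and rise, the other ligands, and the 5 genes most correlated with HBEGF, of which 1 is not reported here. On simulated data for siGATA2 against siControl, over 28730 genes with known changes in 100 genes of each size, 44% with a log2 size of 1 and 83% with a log2 size of 2 were recovered, and 6.62% of the calls were false. The simulated arrays were independent and only those genes changed, whereas 26.5% of genes were called in the data. These rates therefore need not hold for the data. Alternatives were 75th percentile scaling, scaling to 7 E1A spike-in probes, normexp with an offset of 50 on the median signal (the files hold no mean signal), other filters on dim probes, the methods' t-test, the mean over probes, the deposited log2 matrix, blocks by replicate number, title letter and slide row, array weights, siControl arrays 2 and 4 only, and leaving out each array. A slide block could not be fitted with 1 slide. Arrays have no read depth, and their number limits the precision.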

Additional observations from a re-analysis of the deposited data

Results flagged for a closer look

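In the member and pathway genes named, 86 groups of 4 values were examined for an array far from the others, and 5 had one, where chance gives about 1 in 20. Of these, 3 concerned siControl array 1. ERBB2 read 13.82 there, whereas the rest of siControl ran from 12.85 to 12.96, which left a gap of 0.887 of the range. RHBDF1 was 11.97 against 11.37 to 11.45, a gap of 0.867, and PHLDA1 was 10.35 against 9.39 to 9.51, a gap of 0.875. PIK3R2 on siControl array 4 was 16.19 against 16.48 to 16.50, a gap of 0.935. NRG1 on siGATA2 array 2 was 5.36 against 4.53 to 4.67, a gap of 0.831. All groups share the same 8 arrays, and a cause was not tested.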

How the results depend on the processing

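HBEGF was called higher under all 22 alternatives run, between 2.13 and 2.78 on the log2 scale, with adjusted p from 2.05e-05 to 0.00616 from limma or the methods' t-test. Leaving out 1 array gave 2.39 to 2.76. With E1A spike-in scaling AREG was -0.04, TGFA -0.56, EGF -1.43, BTC 0.60, ERBB2 1.21, ERBB3 -0.10 and ERBB4 -0.58, and 1 member was called higher and 0 lower, 1 member probe higher and 0 lower, and 1 pathway gene higher and 5 lower. With siControl 1 left out as well, which was added once results were known, TGFA was -0.10, ERBB3 0.31 and ERBB4 -0.07. In that setting 10 pathway genes were called higher, and 2 member probes were called lower, that of EGF and the second of TGFA. With 75th percentile scaling AREG was called at 0.57. With normexp BTC was 0.21 and ERBB4 -0.02, in a setting that changes the signal used, the background correction and the offset together. With the mean over probes TGFA was -0.51 and EGFR 0.07. With slide row as a block BTC was 1.04 and ERBB3 0.48, both not called, and 2 members were called higher. With the methods' t-test ERBB3, at 0.57, had an adjusted p of 0.0557. With siControl arrays 2 and 4 only, ERBB3 was 0.65 and not called, ERBB4 was -0.10, and the same 2 member probes were called lower. With array weights GATA2 was called higher at 1.1 (adjusted p = 0.00194 from limma), 26 pathway genes were higher and 18 lower, and the same 2 member probes were lower. All genes called higher numbered 3558, but 141 with spike-ins, 1788 with siControl 1 left out as well, 2184 with slide row as a block, 5338 with the title letter as a random block and 8042 with array weights, and genes called lower numbered 4086, but 1899 and 7537 under spike-in scaling and array weights. The share of lower genes among those called was 53.5%, but 93.1% with spike-in scaling and 70.8% with siControl 1 left out as well. The cause of these differences was not tested.

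With each array left out, BTC was 0.86 to 1.24, ERBB3 0.47 to 0.70, TGFA -0.01 to 0.16, ERBB4 -0.24 to 0.59, EGF -1.05 to -0.94, ERBB2 1.80 to 2.14 and GATA2 0.49 to 0.89. AREG was 0.16 to 0.53 and EREG -0.80 to -0.37, with 0.16 and -0.37 without siControl array 3, and EGFR was -0.39 to -0.16, with -0.16 without siControl array 1. The call of BTC was lost without siGATA2 array 2, at 1.00 (adjusted p = 0.0526 from limma), and that of ERBB3 without siGATA2 array 1, 2 or 3 or siControl array 2, 3 or 4. Members called higher numbered 2 to 4, with 2 without siGATA2 array 2, and 1 was called lower each time.

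Samples were not paired by replicate number, since arrays of the same number deviated from their group with correlations of 0.54, -0.31, 0.17 and 0.22. With the replicate block ERBB3 was 0.57 (adjusted p = 0.0554 from limma), and 3376 genes were called higher and 3708 lower. The dim probes of BTC, AREG, EREG and ERBB4 limit what the arrays show of those members.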
